A study of Rattus norvegicus with 2 samples.

Results

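The genes described here move sodium and calcium across cell membranes in the rat duodenum. They are the sodium pump subunit gene Atp1b1, the calcium pump genes Atp2a2, Atp2a3, Atp2b1, Atp2b2 and Atp2b4, and the sodium-calcium exchanger gene Slc8a1. They were chosen by name, and every probe set that the array annotation assigns to one of them alone was taken. This gave 7 genes with 22 probe sets, of 4736 genes and 8799 probe sets in all. The duodenal mucosa of 1 rat held for 2 weeks in an immobilization cage was compared with that of 1 control rat, which spent the same 2 weeks in a metabolic cage. Both were male Wistar rats aged 15 weeks, and total RNA of each was hybridised to 1 Affymetrix rat U34A array. The source of the RNA is labelled as duodenal epithelial cells, and pooling is not mentioned in the labels. Since each group holds 1 array, the spread between animals is unknown, the differences have no replicate check, and no p-values were computed.

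The sodium pump sits in the basolateral membrane of enterocytes and exports sodium in exchange for potassium at the cost of ATP. It consists of a catalytic alpha subunit and a glycosylated beta subunit, which is needed for assembly of the pump and its delivery to the membrane, and the sodium gradient it builds drives uptake of sugars, amino acids and other solutes. Calcium that has entered an enterocyte leaves it at the basolateral side through the plasma membrane calcium pumps, the Atp2b genes, and through the sodium-calcium exchanger, which uses the sodium gradient. The pumps of the Atp2a genes instead return calcium from the cytosol to the endoplasmic reticulum.

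The windows around the annotated start sites of Atp2b1, Slc8a1 and Atp2a2 are shown because the first pair of genes acts in calcium export and had log2 ratios below -0.25, whereas the store pump gene Atp2a2 was close to 0. These windows were picked after the values were seen. The Atp2b1 log2 ratio of -0.27 was smaller than the spread of 0.31 among probe sets of the same gene. Each sequence is the window listed as the gene's RefSeq promoter on the build GRCr8, all on the + strand. It runs 5′ to 3′ from 250 bases before to 50 bases after the annotated start. The Atp2b1 window lies at chr7:35622211-35622510, the Slc8a1 window at chr6:19023309-19023608 and the Atp2a2 window at chr12:39733269-39733568. Capitals mark the GC box, GGGCGG, and the CCAAT box, CCAAT, each on either strand.
Atp2b1: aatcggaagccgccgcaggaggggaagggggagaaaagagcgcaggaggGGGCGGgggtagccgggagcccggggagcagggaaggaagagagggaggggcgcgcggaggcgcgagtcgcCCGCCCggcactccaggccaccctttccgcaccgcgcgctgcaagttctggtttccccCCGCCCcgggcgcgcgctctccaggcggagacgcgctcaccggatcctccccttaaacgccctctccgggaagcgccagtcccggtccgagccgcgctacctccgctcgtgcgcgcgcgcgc
Slc8a1: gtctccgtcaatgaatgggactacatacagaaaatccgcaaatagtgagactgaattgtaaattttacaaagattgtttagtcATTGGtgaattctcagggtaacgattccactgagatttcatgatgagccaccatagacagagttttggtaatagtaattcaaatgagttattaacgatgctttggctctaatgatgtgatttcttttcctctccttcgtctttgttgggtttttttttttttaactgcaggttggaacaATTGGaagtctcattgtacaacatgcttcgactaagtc
Atp2a2: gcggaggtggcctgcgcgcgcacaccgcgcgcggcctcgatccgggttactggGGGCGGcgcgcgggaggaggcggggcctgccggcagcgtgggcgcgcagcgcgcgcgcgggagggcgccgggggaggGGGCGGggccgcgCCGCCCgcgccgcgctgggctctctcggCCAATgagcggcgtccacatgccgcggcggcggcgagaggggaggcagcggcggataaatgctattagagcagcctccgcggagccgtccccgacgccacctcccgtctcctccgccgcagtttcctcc
The share of G and C was 74.3% in the Atp2b1 window and 79.0% in the Atp2a2 window, against 36.3% in the Slc8a1 window. Of the windows not shown, Atp2a3 had 72.7%, Atp2b2 72.3% and Atp2b4 44.7%. The median over the 33469 promoters of the table was 51.7%. Atp2b1 had 3 GC boxes, Atp2a2 had 3 GC boxes and 1 CCAAT box, and Slc8a1 had no GC box and 2 CCAAT boxes. Of all promoters, 33.1% held a GC box and 37.5% a CCAAT box. The TATA box, TATAAA, is held by 14.2% of promoters, and AGGTCA, a half-site of nuclear receptors, by 16.2%. Neither was found on either strand in the windows of the 6 genes matched in the table (Atp2a2, Atp2a3, Atp2b1, Atp2b2, Atp2b4 and Slc8a1). The rat Slc8a1 gene is known to use several tissue-specific start sites, and the window shows the one in the table. Its letters hold a run of T, then ctgcag and later an atg, as the end of an intron before a coding exon can. The Slc8a1 window may therefore not be a promoter, which was not tested. The windows of Atp2b1 and Slc8a1, both with lower signals in the immobilized rat, thus differ widely in base composition, and the matches describe these letters only.

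Signals are the deposited linear intensities, with the immobilized rat's array scaled by a factor of 1.017, which centres the log2 ratios of probe sets above a floor on a median of 0. The floor was the 50th percentile of all signals, 39.97. A ratio is given where both arrays exceeded the floor, and a value that exceeded it on 1 array only is given as a bound over the floor. The technical SD, the spread of log2 ratios among probe sets of the same gene, was 0.31 (696 genes with 1570 probe sets) and 0.22 where signals exceeded 1000 (95 genes, 204 probe sets). This is error within the arrays and does not include the spread between animals. Of the 9 hybridisation spike-in probe sets above the floor, 7 were lower in the immobilized rat, with a median log2 ratio of -0.21, and the part of this in the ratios below was not tested. Each gene is represented by its brightest probe set, and 2524 genes were above the floor on both arrays.

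In the immobilized rat, the signal of the exchanger gene Slc8a1 was 1.59-fold lower, at a single probe set. The sodium pump gene Atp1b1 was 1.22-fold lower and the calcium export pump gene Atp2b1 1.21-fold lower, each within 1 technical SD (0.31) of 0. The Atp1b1 log2 ratio of -0.29 was, however, beyond the technical SD of 0.22 for signals over 1000, the class of its signals. The store pump gene Atp2a2 was 1.03-fold lower, and Atp2a3 had a log2 ratio of 0.00. Atp2b2 and Atp2b4 were not above the floor on either array. Of the 5 genes measured on both arrays, 0 differed by at least 2-fold, beside 2.69% of all genes. All 5 had a log2 ratio below 0, beside 50.5% of all genes, and the sign of Atp2a3 turned under some processing settings. Their median log2 ratio was -0.27, against 0.00 over all genes, and it was -0.05 after quantile normalization, -0.14 after loess scaling and -0.15 with the floor at percentile 30. In tissue RNA, fewer cells of a type and less RNA per cell cannot be told apart.

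**Figure D1:**
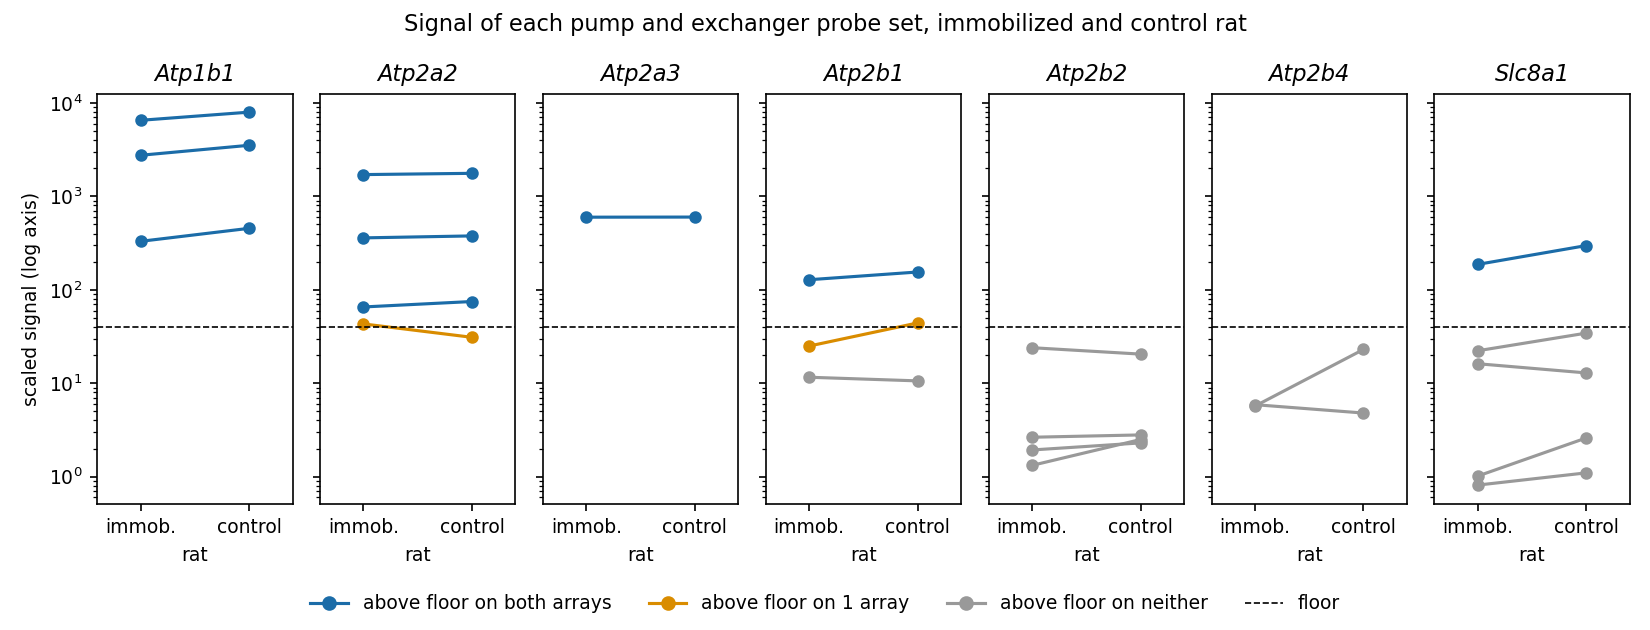
Scaled signal (log axis) of each of the 22 probe sets in the immobilized rat (left point) and the control rat (right point), 1 panel per gene, with a line joining the 2 points of a probe set and the floor of 39.97 dashed. All 3 Atp1b1 probe sets lie above the floor and lower in the immobilized rat, whereas every Atp2b2 and Atp2b4 probe set lies under the floor.

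At the level of probe sets, 9 of the 22 were above the floor on both arrays, 2 on 1 array and 11 on neither. The 9 probe sets, which belong to the same 5 genes, had log2 ratios from -0.67 to 0.00, all below 0, beside 49.9% of all probe sets. None of them reached 2-fold, beside 3.19% of all probe sets. The ratio exceeded 1 technical SD of 0.31 at 3 of the 9, and 2 technical SDs at 1, the Slc8a1 probe set.

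**Figure D2:**
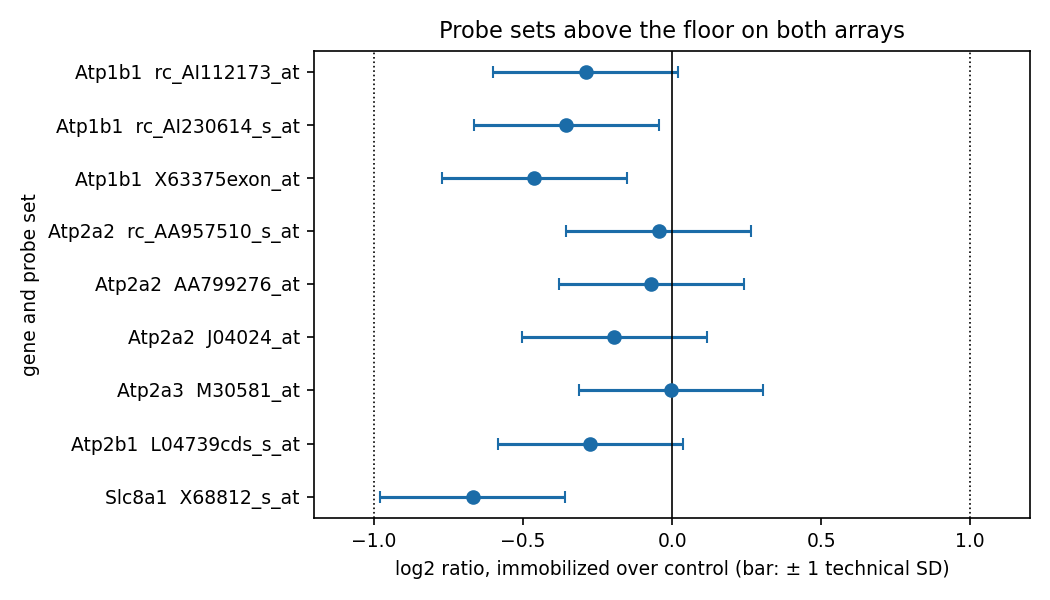
Log2 ratio, immobilized over control, of the 9 probe sets above the floor on both arrays, with bars of 1 technical SD (0.31) to each side and dotted lines at 2-fold. The Slc8a1 probe set lies farthest from 0, at -0.67, and the Atp2a3 probe set at 0.00.

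Atp1b1 encodes the beta1 subunit of the sodium pump and had all 3 of its probe sets above the floor on both arrays. Its probe set rc_AI112173_at had a signal of 6506 in the immobilized rat, against 7954 in the control rat. The probe set rc_AI230614_s_at had 2749 in the immobilized rat and 3516 in the control rat. The probe set X63375exon_at had 329.9 in the immobilized rat and 454.5 in the control rat. The immobilized rat was thus lower at each of the 3 probe sets, although their signals span more than a factor of 10. The log2 ratios were -0.29, -0.35 and -0.46, with a mean of -0.37 ± 0.09 (SD over 3 probe sets of the same RNA, which are not biological replicates).

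The size of the Atp1b1 difference depended on how bright signals were scaled. For the brightest probe set the log2 ratio was -0.29, but -0.05 after quantile normalization and -0.14 after loess scaling. For X63375exon_at, the least bright of the 3, it was between -0.49 and -0.45 under every scaling and floor tried. Bright genes were more often lower in the immobilized rat. Among the 409 genes with a mean signal over 1000, 64.1% had a log2 ratio below 0, with a median of -0.08. Of these genes, 19.1% had a lower ratio than Atp1b1, against 18.3% of all 2524 genes.

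**Figure D3:**
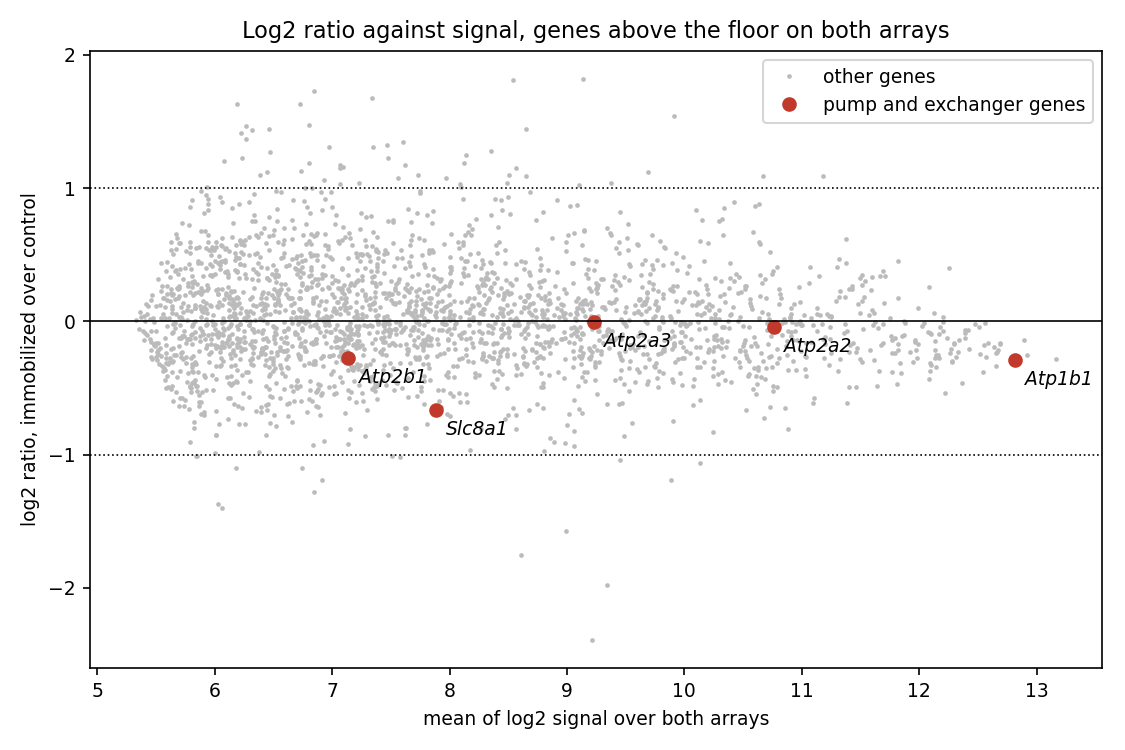
Log2 ratio, immobilized over control, against the mean log2 signal of both arrays for the 2524 genes above the floor, with the 5 measured pump and exchanger genes in red and dotted lines at 2-fold. Slc8a1 lies lowest of the 5, Atp2a2 (-0.05) and Atp2a3 (0.00) lie nearest to 0, and Atp1b1 lies among the brightest genes, most of which lie below 0.

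Of the plasma membrane calcium pumps, Atp2b1 was above the floor on both arrays at 1 of its 3 probe sets. Atp2b2 and Atp2b4 were under the floor at every probe set. Atp2b1 encodes the widely expressed pump of this group, known as the main calcium pump of the enterocyte's basolateral membrane. Its probe set L04739cds_s_at had a signal of 128 in the immobilized rat, against 155 in the control rat. The log2 ratio was -0.27, smaller than the technical SD, and 19.8% of all genes had a lower one. The probe set rc_AI172499_at had 25.0 in the immobilized rat, under the floor, and 44.2 in the control rat, which gives at least 1.11-fold lower. The probe set rc_AI103671_at was under the floor on both arrays, with 11.6 in the immobilized rat and 10.6 in the control rat. The probe sets measured on at least 1 array were thus both lower in the immobilized rat, and the last one gives no ratio. With the floor at the 30th percentile, rc_AI172499_at had a log2 ratio of -0.82.

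Atp2b2 encodes a pump best known from neurons and the hair cells of the inner ear. Its brightest probe set, L05557cds_g_at, had a signal of 24.0 in the immobilized rat and 20.5 in the control rat. Its other 3 probe sets lay between 1.32 and 2.64 in the immobilized rat and between 2.30 and 2.80 in the control rat. None of the 4 exceeded the floor on either array, so no ratio is given; with the floor at the 30th percentile, L05557cds_g_at had a log2 ratio of 0.23. Atp2b4 encodes a pump found in many tissues, among them red blood cells and smooth muscle. Its probe set U15408_at had 5.70 in the immobilized rat and 23.0 in the control rat, and X76452cds_s_at had 5.90 in the immobilized rat and 4.80 in the control rat. All these signals were under the floor, and the 2 probe sets ran in opposite directions.

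Slc8a1, which encodes the exchanger that expels calcium in return for sodium, had the lowest ratio of the 5 measured genes, from 1 of its 5 probe sets. The probe set X68812_s_at had a signal of 187 in the immobilized rat, against 297 in the control rat. Its log2 ratio of -0.67 was 2.16 technical SDs from 0, and 78 of 2524 genes (3.09%) had a lower one. It was the only one of the 5 measured genes at least 1.5-fold lower, beside 4.87% of all genes. Under every scaling and floor tried, the ratio of this probe set lay between -0.72 and -0.66. The probe set U04934_s_at had 22.3 in the immobilized rat and 34.4 in the control rat, and S67769_s_at had 16.2 in the immobilized rat and 12.9 in the control rat. These lie under the floor and run in opposite directions, and with the floor at the 30th percentile their log2 ratios were -0.62 and 0.33. The remaining probe sets, X68191_at and U04937_s_at, had signals of 1.02 and 0.81 in the immobilized rat and 2.60 and 1.10 in the control rat. The difference at Slc8a1 therefore rests on a single probe set.

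The calcium pumps of the endoplasmic reticulum had nearly the same signals in both rats. Atp2a2 encodes the pump isoform present in most cells and abundant in heart and smooth muscle. Its probe set rc_AA957510_s_at had 1708 in the immobilized rat, against 1762 in the control rat. The probe set AA799276_at had 359 in the immobilized rat and 377 in the control rat. The probe set J04024_at had 65.5 in the immobilized rat and 74.9 in the control rat. The log2 ratios of -0.05, -0.07 and -0.19 were all smaller than the technical SD. The remaining probe set, rc_AA800212_at, was above the floor only in the immobilized rat, with 43.1 there and 31.0 in the control rat, at least 1.08-fold higher. With the floor at the 30th percentile its log2 ratio was 0.48, opposite in sign to the other 3.

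Atp2a3 encodes the isoform known from blood cells and several epithelia. Its only probe set, M30581_at, had 598 in the immobilized rat and 599.8 in the control rat. The log2 ratio was 0.00 to 2 decimals, and it ranged from -0.03 to 0.01 over the settings tried. The ratios of the 3 Atp1b1 probe sets ran from -0.46 to -0.29 and those of the 3 measured Atp2a2 probe sets from -0.19 to -0.05. Their means differed by -0.27 (Atp1b1 minus Atp2a2). The technical SD of 0.31 is that of a single probe set, and the error of a difference between means was not computed. Probe sets of the same RNA are not replicates, and how often other pairs of genes differ as much was not counted. After quantile normalization or loess the ranges overlapped, since the brightest Atp1b1 probe set then stood at -0.05 or -0.14.

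**Figure D4:**
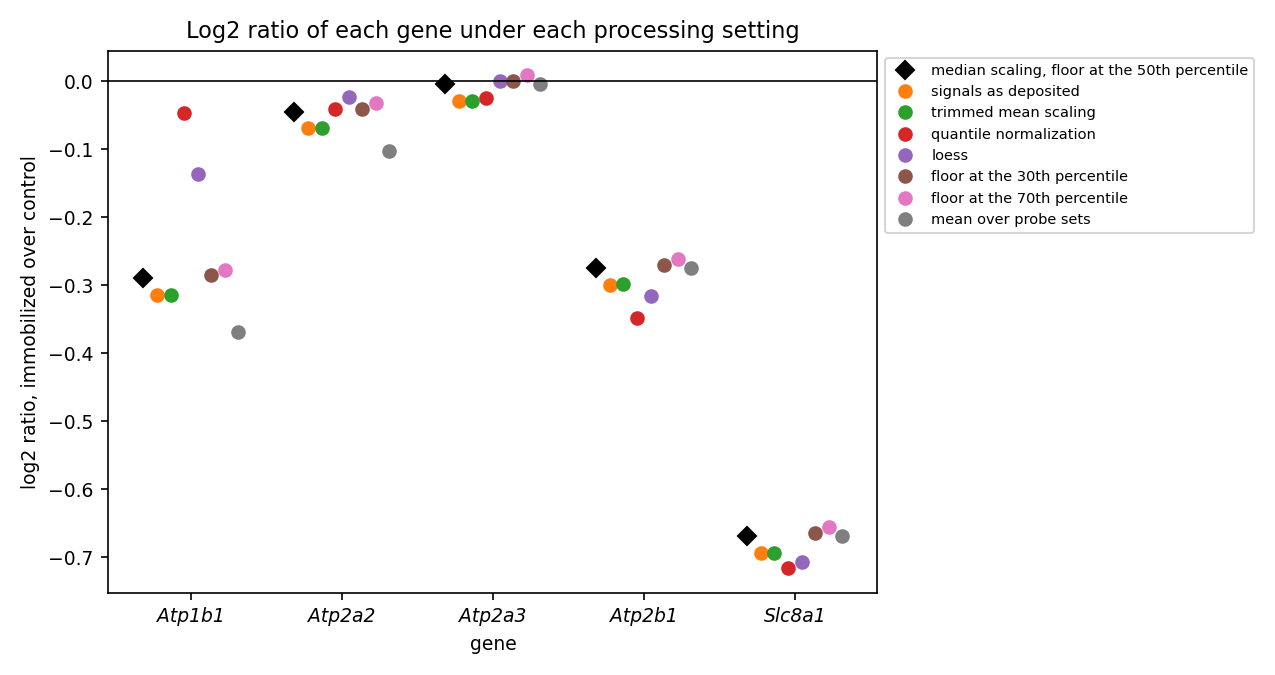
Log2 ratio, immobilized over control, of each gene under each processing setting, with black diamonds for median scaling and a floor at percentile 50, and circles for the alternatives. Slc8a1 and Atp2b1 stay below -0.25 in every setting shown, and Atp1b1 ranges from -0.37 to -0.05. Atp2b2 and Atp2b4 have no value at the 50th percentile floor and are not drawn.

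Partners of the pumps were examined in 5 gene lists. Of 14 listed genes for the other sodium pump subunits and their FXYD regulators, small membrane proteins that tune the pump, 6 were on the array and 3 gave ratios. Atp1b3, the gene of another beta subunit, had a signal of 299 in the immobilized rat and 269 in the control rat, a log2 ratio of 0.15, opposite in sign to Atp1b1. Fxyd1 was at -0.18 and Fxyd4 at -0.49, with Fxyd4 signals near the floor (46.7 in the immobilized rat and 65.7 in the control rat). The beta2 subunit gene Atp1b2 was just above the floor in the immobilized rat only (43.7 against 31.9 in the control rat), and the alpha subunit gene Atp1a4, known from sperm, was under it on both arrays. Other alpha subunit genes were not analysed here.

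Among the other calcium pumps, exchangers and regulators, 11 of 20 listed genes were on the array and 4 gave ratios, 3 of them above 0. Calm2, a gene of calmodulin, the calcium sensor that activates the plasma membrane pumps, had a signal of 1219.6 in the immobilized rat and 912 in the control rat, a log2 ratio of 0.42. Atp2c1, the Golgi calcium and manganese pump, was at 0.30 and the scaffold gene Cask, whose product can bind plasma membrane pumps, at 0.25. Both ratios were within 1 technical SD (0.31) of 0, and Atp2c1 had low signals (61.9 in the immobilized rat and 50.4 in the control rat). Another scaffold gene, Dlg1, was at -0.49 with signals of 48.4 in the immobilized rat and 67.9 in the control rat. The pump genes Atp2a1, of fast skeletal muscle, and Atp2b3, of brain, were under the floor on both arrays, as was Pln, whose product phospholamban restrains the Atp2a2 pump. The median of the 4 genes was 0.27, opposite in sign to that of the pumps and exchanger, which was -0.05 after quantile normalization.

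Calcium release, store and buffer proteins gave ratios for 10 of 16 genes on the array, 6 below 0 and 4 above, with a median of -0.27. Canx, named after its values were seen, counts as above 0 at 0.13. Its 5 probe sets, all above the floor, ran from -0.78 to 0.13. Farthest from 0 by their brightest probe sets were Casq1, a calcium-storing protein of muscle (-0.48), the oxidoreductase gene Pdia3 (-0.42, but 0.26 at another probe set), the calcium buffer gene S100g (-0.33, and -0.99 at another) and the chaperone gene Hspa5 (-0.31, and 0.02 at another). Casq1 signals were near the floor (42.1 in the immobilized rat and 58.8 in the control rat). With probe sets averaged, the median of this list was -0.12. None of the genes in these first 3 lists reached 2-fold.

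Other ATP-driven ion pumps, here mostly subunits of the proton pump of acidic organelles, gave ratios for 8 of 13 genes on the array, 5 above 0 and 3 below, with a median of 0.09. Atp6v0a1 was at 0.34 (0.76 at another probe set), Atp6v1c1 at 0.22 and Atp6v1d at 0.16, and Atp6v1a at -0.28, with -0.19 and -0.18 at its other probe sets. The genes of gastric and colonic proton-potassium pumps, Atp4a, Atp4b and Atp12a (named after their values were seen), were under the floor on both arrays. Carriers and channels coupled to the sodium gradient gave ratios for 13 of 17 genes on the array, 9 below 0 and 4 above, with a median of -0.09. The carnitine carrier Slc22a5 was 2.05-fold higher, beside 2.02% of all genes at least 2-fold higher. The sodium bicarbonate cotransporter Slc4a4 was 2.09-fold lower, beside 0.674% of all genes at least 2-fold lower. The chloride cotransporter gene Slc12a2 was at 0.83, with signals of 161 in the immobilized rat and 90.4 in the control rat. This came from 1 of its 4 probe sets, and the others were under the floor on both arrays. The sodium-proton exchanger gene Slc9a2 was at -0.69. Slc5a6, named after its values were seen, was at -0.07, but at -1.16 at another probe set.

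**Figure D5:**
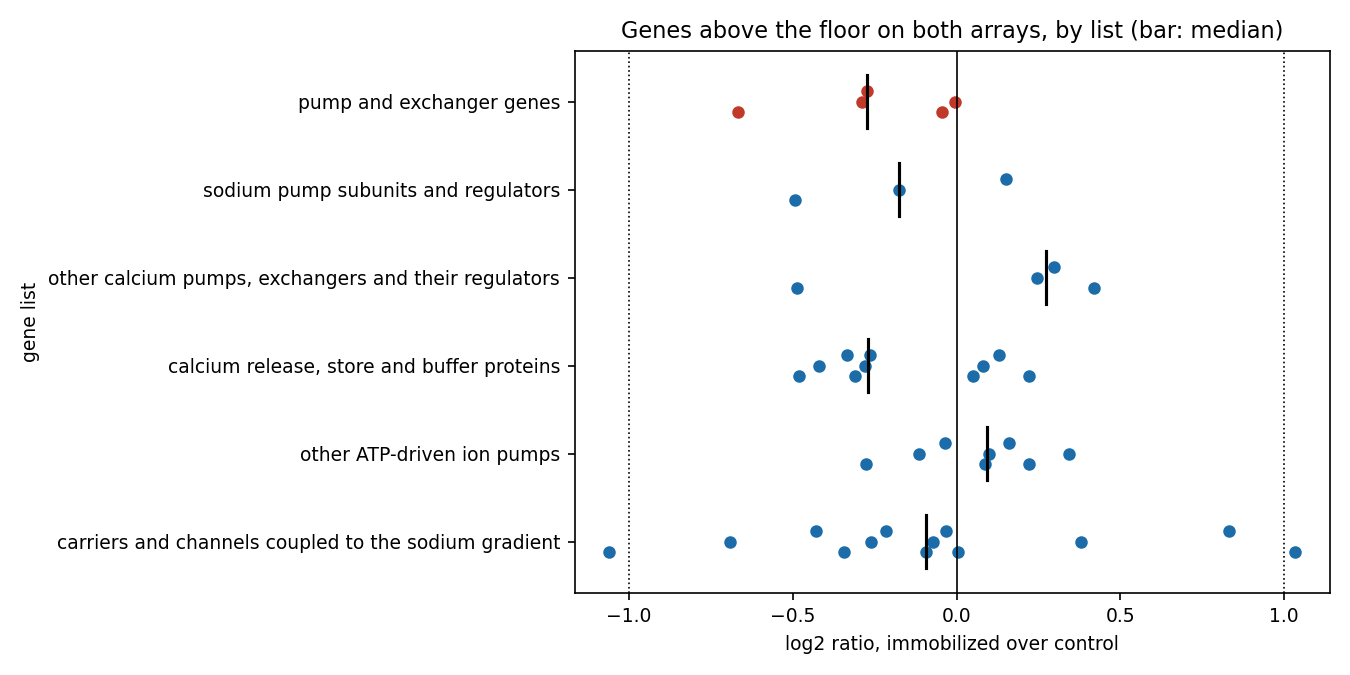
Log2 ratio, immobilized over control, of each gene above the floor on both arrays, by gene list, with the median of each list as a black bar and dotted lines at 2-fold. The 5 pump and exchanger genes have a median of -0.27, and the carriers coupled to the sodium gradient spread widest, from -1.06 to 1.03.

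Marker genes of cell types were measured in the same arrays. Of 11 villus enterocyte genes, all above the floor, 10 had a ratio below 0, with a median log2 ratio of -0.28. The summed signal of the 11 was 51175 in the immobilized rat and 59490.5 in the control rat. Among them, Slc5a1 is also a sodium-coupled carrier. All 11 had signals over 1000. In that class 64.1% of genes had a ratio below 0, with a median of -0.08, beside 50.5% of all genes. The markers were not examined under the other scalings. The measured pump and exchanger genes had log2 ratios of -0.67 (Slc8a1), -0.29 (Atp1b1), -0.27 (Atp2b1), -0.05 (Atp2a2) and 0.00 (Atp2a3). Of 9 smooth muscle genes, 6 gave ratios, 3 above 0 and 3 below, with a median of 0.25. Acta2, the smooth muscle actin gene, was 3.20-fold higher (a log2 ratio of 1.68, but -0.13 at another probe set), Myh11 was at 0.60 and Actg2 at 0.51. The 3 below 0 were Tagln (-0.01), Myl9 (-0.02, but 0.79 at another probe set) and Tpm1 (-0.16). The summed signal was 1705 in the immobilized rat and 1519 in the control rat, of which Tpm1 alone gave 952 in the immobilized rat and 1062 in the control rat. These smooth muscle genes were named after their values were seen. Among these markers, Des and Tpm2 were under the floor on both arrays. Blood and immune cell genes had 4 of 5 ratios above 0, with sums of 548 in the immobilized rat and 449.5 in the control rat. Of 8 neuron and glia genes, 6 were under the floor on both arrays, with sums of 198 in the immobilized rat and 230.0 in the control rat, as were all 3 endothelial genes, with sums of 54.0 in the immobilized rat and 29.5 in the control rat. All 13 exocrine pancreas genes had a ratio above 0, with sums of 13248.5 in the immobilized rat and 6966 in the control rat. The part of these cell types in the ratios of the pump and exchanger genes was not tested.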

How the data were processed

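Duodenal mucosa RNA of 1 immobilized and 1 control rat was measured on rat U34A arrays, grouped by the sample titles. The deposited values are linear signal intensities, 1 per probe set, made by the authors with the manufacturer's software, version 4.0, per the series' design text, whereas the submitters' processing notes name MAS5, so the algorithm is unsettled. The authors' scaling shows in the values, with a 2% trimmed mean of 215.9 on the immobilized rat's array and 216.0 on the control array. Depth does not apply to arrays, and their number limits the precision. Detection calls were not used here.

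Of 8799 probe sets, 59 were controls. The annotation gave 1 symbol for 7006, several for 308 and none for 1426, and 6985 symbols were updated through the gene ID. Only probe sets with 1 symbol entered gene values. Scaling, the floor and the ratio are given with the results. The threshold of 2-fold was 3.23 technical SDs. Ratios on the log2 scale were computed from the deposited intensities, with no test between groups. The members and lists were chosen with earlier results of these data known, and the class of signals over 1000 was set after the data were seen. Named partner genes were up to 4 per list farthest from 0, those at 2-fold and the pump isoforms, with Pln, named for its link to Atp2a2, and others where stated added after their values were seen. The alternatives tried were other scalings (none beyond the deposited one, by trimmed mean, by quantiles, or by loess with a span of 0.3), a floor at percentile 30 or 70, averaging a gene's probe sets, counting at 1.5-fold or 3-fold, and counting bounds. The ratios were tested on simulated data. Promoters came from the RefSeq table for GRCr8. The software was Python 3.11.15 with statsmodels 0.14.6, scipy 1.17.1, pandas 2.3.3, numpy 2.4.6 and matplotlib 3.10.9.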

Additional observations from a re-analysis of the deposited data

How the results depend on the processing

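The count of pump and exchanger genes at 2-fold was 0 under every scaling, floor and probe set rule, at 3-fold and with bounds counted, and 1 (Slc8a1) at 1.5-fold. With the floor at the 30th percentile Atp2b2 had a log2 ratio of 0.23, which it lacks otherwise. Over the settings, ratios ranged from -0.37 to -0.05 for Atp1b1, from -0.10 to -0.02 for Atp2a2, from -0.35 to -0.26 for Atp2b1 and from -0.72 to -0.66 for Slc8a1. Atp2a3 turned to 0.00 or above under loess and at either other floor (0.01 at most). The median of the measured genes was -0.27, but -0.05 after quantile normalization, -0.14 after loess and, with Atp2b2 added, -0.15 at the 30th percentile floor. The cause was not tested for the scalings. List medians kept their sign in all settings, with ranges of -0.25 to 0.00 for sodium pump subunits, 0.25 to 0.35 for other calcium pumps and regulators, -0.29 to -0.12 for calcium stores and buffers, 0.03 to 0.11 for other ATP-driven pumps and -0.23 to -0.07 for sodium-coupled carriers. No paired analysis was possible because each group holds 1 array. Leaving out a replicate was not possible for the same reason. Signal over background limits Atp2b1, Atp2b2, Atp2b4 and 4 of 5 Slc8a1 probe sets.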

Other observations

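The other sodium-calcium exchanger genes, named after their values were seen, gave no ratio. Slc8a2, known from brain, had a signal of 35.6 in the immobilized rat, under the floor, and 68.3 in the control rat, at least 1.71-fold lower. Slc8a3, known from brain and skeletal muscle, was under the floor on both arrays, with 18.9 in the immobilized rat and 26.3 in the control rat.

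Some probe sets designed from the same sequence record gave unlike values, and these too were picked after they were seen. For Atp1b2, D90048exon_at had 55.2 in the immobilized rat and 9.20 in the control rat, at least 1.38-fold higher, while D90048exon_g_at had 11.5 in the immobilized rat and 16.3 in the control rat. For Fxyd1, rc_AA799645_at had 136 in the immobilized rat and 154 in the control rat, while rc_AA799645_g_at was under the floor on both arrays, with 5.90 in the immobilized rat and 10.5 in the control rat. The epithelial sodium channel subunit gene Scnn1a was above the floor in the immobilized rat only, with 60.2 against 38.1 in the control rat, at least 1.51-fold higher. Its partners Scnn1b and Scnn1g were under the floor on both arrays.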
